A study of Mus musculus with 18 samples.

Results

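The submandibular tissue kallikreins are a family of closely related secreted serine proteases. The members were all probes of the array whose gene symbol is Egfbp2, Klk1b5, Klk1b9, Klk1b11, Klk1b16, Klk1b21, Klk1b22, Klk1b26 or Klk1b27, which gave 14 probes of 9 genes among 25697 probes and 16593 gene symbols. Each probe was kept apart. These genes were picked because their levels in this series stood apart from those of the non-irradiated controls and were low at 1.4 Gy, so those 2 contrasts are described and not tested.

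In the mouse, the tissue kallikrein genes lie side by side in a cluster that arose by gene duplication. Most of them are transcribed in the granular convoluted tubules of the submandibular salivary gland, where androgens and thyroid hormone raise their output, and the proteases are secreted into saliva. Several are known for cutting or binding growth factor and hormone precursors, among them the precursors of epidermal growth factor, nerve growth factor and renin.

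The RNA came from thyroid tissue of female BALB/c nude mice, 6 months old. Groups received intravenous 211At in phosphate-buffered saline, an alpha-particle emitter that the thyroid takes up, and were killed after 24 h with absorbed doses to the thyroid of 0.05, 0.5, 1.4, 11.2 or 32.4 Gy, while the controls (0 Gy) were treated with an empty syringe. All groups lack the mature T cells that nude mice lack. The thyroids of a group were pooled before extraction, and each of these 6 pools was hybridized to 3 MouseRef-8 arrays of Illumina, so every n is 3 arrays of 1 pool, every p-value measures only the spread between such arrays, and the differences between mice were not measured.

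The label of the tissue was checked against its markers. Of 11 measured thyroid follicular genes, only Hhex was detected on all 3 arrays of every group and Tshr on all 3 arrays of 0.5 and 1.4 Gy. The probes of Tg (thyroglobulin), Slc5a5 (the iodide transporter), Pax8, Nkx2-1 and Foxe1 were detected on none of the 18 arrays. The summed signal of the 11 genes was between 1063 and 1138 on every array after all arrays were normalized together. This sum comes mostly from undetected probes, so it does not compare the thyroid content of the pools. In the same libraries, signals of salivary secretory proteins and of skeletal muscle were high and differed between groups, as given beside the results below. In such bulk RNA, more or fewer cells of a type and more or less RNA per cell cannot be told apart.

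The deposited intensities were normalized in 2 sets, 1 of the 6 arrays of 0.05 and 0.5 Gy and 1 of the 12 other arrays. Log2 ratios to 0 Gy at 0.05 and 0.5 Gy therefore cross the sets, and the median of all probes lies at −0.19 in each of them. Where it matters, the ratio after quantile normalization of all 18 arrays together is added and called joint.

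The members are paralogues, and the arrays tell them apart by short probes of 50 bases. The first sequences shown are of probes that lie on the same stretch of different family members, with capitals at the bases that differ from the Klk1b26 probe where both overlap. Klk1b24, a related gene outside the members, is shown because its probe is the nearest to that of Klk1b26.
Klk1b26 (ILMN_1217308): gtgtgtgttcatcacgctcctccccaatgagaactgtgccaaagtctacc
Klk1b22 (ILMN_2946653): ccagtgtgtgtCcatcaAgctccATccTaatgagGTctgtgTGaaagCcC
Klk1b21 (ILMN_2651099): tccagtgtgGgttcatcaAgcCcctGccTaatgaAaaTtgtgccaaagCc
Klk1b5 (ILMN_2731191): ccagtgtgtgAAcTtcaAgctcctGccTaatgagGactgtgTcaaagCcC
Klk1b24 (ILMN_2622463): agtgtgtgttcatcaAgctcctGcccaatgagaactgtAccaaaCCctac
Klk1b24 differs from Klk1b26 at 5 of 49 shared positions, Klk1b21 at 8 of 46, Klk1b5 at 10 of 47 and Klk1b22 at 11 of 47. The probes of Klk1b22 and Klk1b5 shown here differ from each other at 7 of 50. The pair of Klk1b21 probes share 30 identical bases, so they are not independent readings of that gene.

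The next sequences include the probes of Klk1b27 and Klk1b5, the genes whose pairs of probes gave the most unlike readings. Capitals mark bases that differ from Klk1b5 ILMN_1224893, and the last probe overlaps none of the others and has no capitals.
Klk1b5 (ILMN_1224893): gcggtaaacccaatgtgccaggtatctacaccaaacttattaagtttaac
Klk1b27 (ILMN_3009447): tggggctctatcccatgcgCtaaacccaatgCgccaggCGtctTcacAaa
Klk1b11 (ILMN_2979432): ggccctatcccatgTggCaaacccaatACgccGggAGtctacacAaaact
Klk1 (ILMN_2760199): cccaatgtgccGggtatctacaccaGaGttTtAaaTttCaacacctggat
Klk1b27 (ILMN_1252131): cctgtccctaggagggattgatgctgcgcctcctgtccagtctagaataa
Within the overlap the differences from Klk1b5 were 6 of 34 bases in Klk1b27, 8 of 37 in Klk1b11 and 7 of 42 in Klk1, the founding member of the family, which is not among the members. Whether a probe also bound transcripts of a paralogue was not tested, so each value is that of a probe and its labelled gene.

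The genes are neighbours on chromosome 7. RefSeq promoter windows of build GRCm38.p6 were found for 8 of the 9 genes and not for Egfbp2. In the 250 bases before the annotated start, pairs of these promoters were 54.5% to 89.7% identical after alignment (median 77.6% over 28 pairs), with Klk1b11 and Klk1b16 the closest pair. The last 60 bases before the start are shown for 4 of them, all on the plus strand, with the TTTAAA motif in capitals.
Klk1b26 (chr7:44012618-44012677): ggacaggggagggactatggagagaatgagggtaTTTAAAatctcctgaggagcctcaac
Klk1b22 (chr7:44112613-44112672): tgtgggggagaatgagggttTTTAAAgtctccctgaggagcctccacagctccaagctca
Klk1b27 (chr7:44052230-44052289): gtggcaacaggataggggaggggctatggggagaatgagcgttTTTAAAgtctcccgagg
Klk1b5 (chr7:44216414-44216473): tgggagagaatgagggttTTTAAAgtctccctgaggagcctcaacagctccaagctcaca
TTTAAA, which reads the same on both strands, was in this window in 7 of the 8 promoters, all but that of Klk1b21, and in 2.79% of 32851 mouse promoters. The motif AGAACA, searched on both strands over 250 bases because it resembles a steroid receptor element, was in 0 of the 8 and in 16.1% of all promoters. These matches describe the letters only.

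At 0 Gy most of the family was close to background. Of the 14 probes, 7 were detected on none of the 3 control arrays, 2 on some of them and 5 on all 3, whereas all 14 were detected on every array of the other 5 groups. The coefficient of variation of the normalized intensity between the arrays of a group was between 0.897% and 17.5% over the 14 probes and 6 groups, which covers the arrays of 1 pool and not differences between mice.

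Klk1b26 is known as a protease that can activate prorenin. Its normalized intensities were 117, 117 and 103 on the 0 Gy arrays, 26803, 24739 and 27269 at 0.05 Gy, 22000, 23456 and 25774 at 0.5 Gy, 1137, 1226 and 1263 at 1.4 Gy, 20182, 20444 and 19945 at 11.2 Gy, and 14630, 13074 and 15277 at 32.4 Gy. No array of a dose group overlapped the controls, and the 1.4 Gy arrays lay between the controls and all arrays of the other doses. The probe was not detected at 0 Gy, so the levels of the 5 doses in rising order were at least 192-fold, 173-fold, 8.83-fold, 148-fold and 105-fold higher than at 0 Gy. These bounds set the mean of the dose group against the larger of the probe's own 0 Gy signal and the lowest signal of a detected probe, array by array. The log2 ratios given for probes that were not detected at 0 Gy are those of the measured signals.

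Egfbp2, Klk1b22 and Klk1b9 encode proteases purified as binding proteins of epidermal growth factor. Egfbp2 gave 129, 112 and 106 at 0 Gy, 11201, 11318 and 12263 at 0.05 Gy, 14768, 14005 and 15336 at 0.5 Gy, 1011, 930 and 889 at 1.4 Gy, 15162, 15961 and 15800 at 11.2 Gy, and 10558, 9625 and 10981 at 32.4 Gy. Klk1b22 gave 163, 135 and 169 at 0 Gy, 15059, 15896 and 16192 at 0.05 Gy, 16774, 17410 and 16192 at 0.5 Gy, 808, 760 and 745 at 1.4 Gy, 16727, 17269 and 16905 at 11.2 Gy, and 9790, 11611 and 9724 at 32.4 Gy. In both genes the 1.4 Gy arrays lay above all controls and below every array of the other 4 doses. Over the 5 doses in rising order, the log2 ratio of Klk1b22 to 0 Gy was 6.66, 6.76, 2.31, 6.78 and 6.06, each with an SE of 0.08. Egfbp2 was not detected at 0 Gy, and the doses exceeded it by at least 84.7-fold, 107-fold, 6.89-fold, 114-fold and 75.9-fold in the same order.

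The Klk1b9 probe ILMN_2723594 gave 133, 131 and 112 at 0 Gy, 4483, 4869 and 4930 at 0.05 Gy, 6473, 7975 and 7488 at 0.5 Gy, 298, 276 and 294 at 1.4 Gy, 7302, 7096 and 6644 at 11.2 Gy, and 4083, 4218 and 4134 at 32.4 Gy. Its partner ILMN_2784773 ran close to it, with log2 ratios to 0 Gy of 5.17, 5.51, 1.53, 5.56 and 4.92 over the 5 doses in rising order, against 5.25, 5.86, 1.21, 5.81 and 5.05 for ILMN_2723594. The pair of probes thus gave ratios within 0.35 of each other at every dose. ILMN_2723594 was not detected at 0 Gy, and the doses exceeded it by at least 34.8-fold, 53.2-fold, 2.11-fold, 51.2-fold and 30.3-fold in rising order.

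Klk1b16, known as gamma-renin, gave 99, 116 and 105 at 0 Gy, 1673, 2087 and 2296 at 0.05 Gy, 2964, 3112 and 3600 at 0.5 Gy, 214, 181 and 185 at 1.4 Gy, 2641, 2397 and 2843 at 11.2 Gy, and 1795, 1738 and 1546 at 32.4 Gy. It was not detected at 0 Gy, and its level was at least 14.6-fold, 23.5-fold, 1.41-fold, 19.2-fold and 12.4-fold higher from 0.05 to 32.4 Gy. All 3 arrays of 1.4 Gy were above all 3 controls and below every array of the other doses.

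Klk1b11 was read by a pair of probes with unlike ratios. The ratio of ILMN_2979432 was 6.65, 6.49, 2.03, 6.67 and 6.05 from the lowest to the highest dose, and that of ILMN_2632912, which was not detected at 0 Gy, was 5.33, 5.20, 0.98, 5.44 and 4.77. The measured ratio of ILMN_2979432 exceeded that of its partner by 1.04 to 1.32, and by 1.07 to 1.63 on the joint scale. Since the partner was not detected at 0 Gy, its own increase is known only as at least 34.4-fold, 31.4-fold, 1.69-fold, 37.0-fold and 23.3-fold over the 5 doses. Klk1b21, transcribed in mice also in the Leydig cells of the testis, gave ratios of 4.61, 4.99, 0.85, 5.01 and 4.32 with ILMN_2651099 and of 4.29, 4.73, 0.69, 4.65 and 4.13 with ILMN_2732087, neither of which was detected at 0 Gy. For ILMN_2732087 the doses were at least 15.2-fold, 20.7-fold, 1.25-fold, 19.5-fold and 13.6-fold above 0 Gy in rising order.

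**Figure D1:**
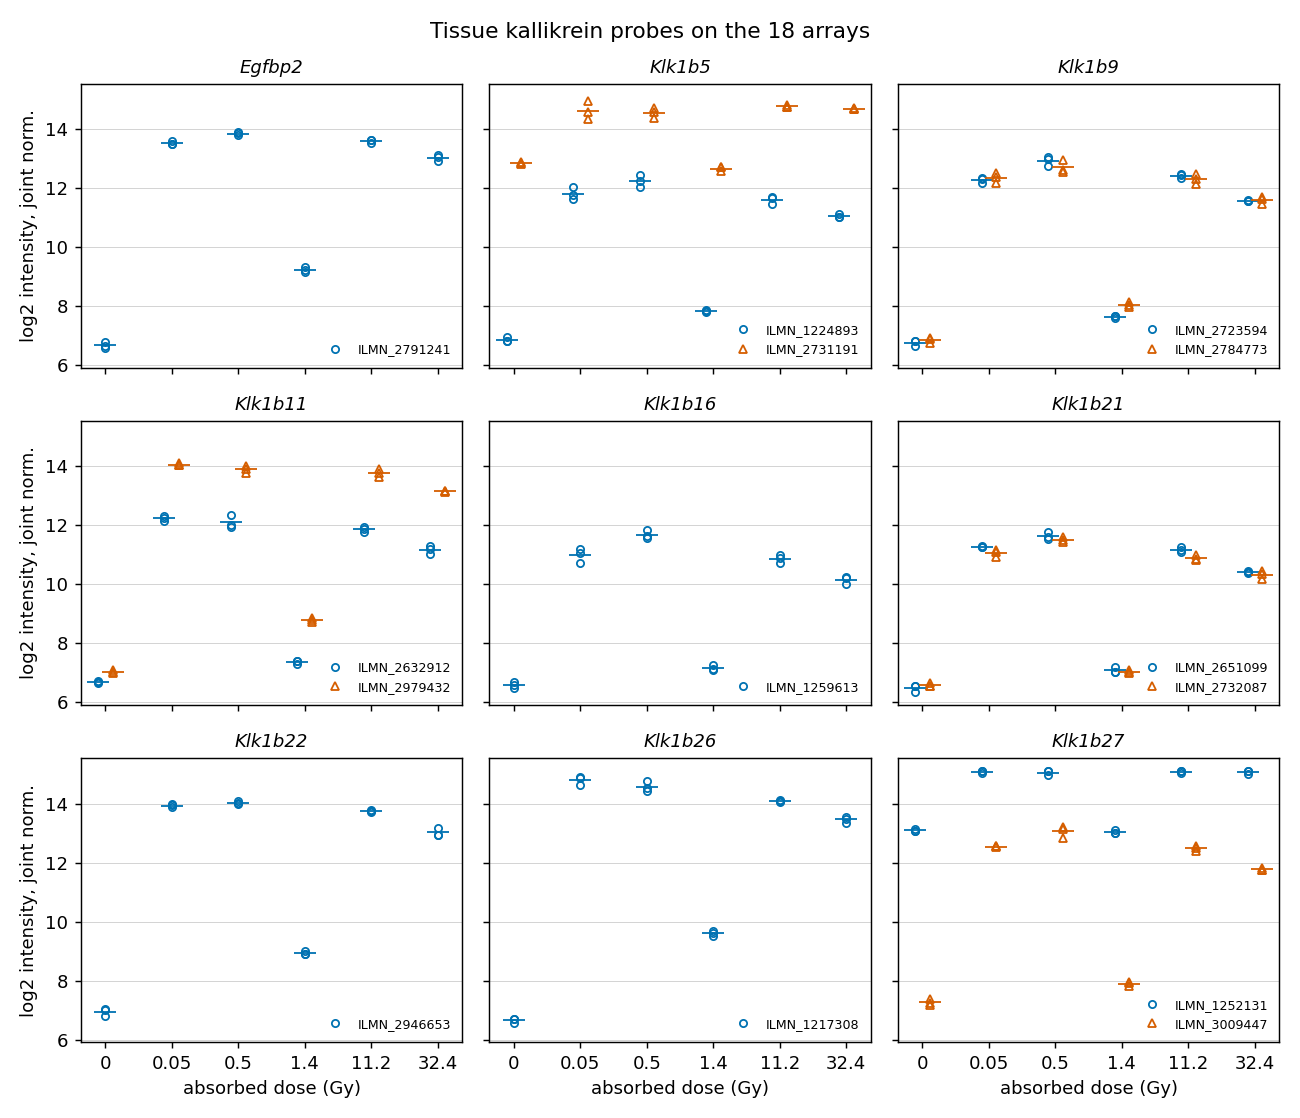
Log2 intensity after joint normalization (vertical axis) of each kallikrein probe by absorbed dose in Gy (horizontal axis, groups evenly spaced). Points are the 3 arrays of a group, bars their mean, and circles and triangles the probes of a gene; 12 of the 14 probes step up at 0.05 and 0.5 Gy, drop at 1.4 Gy to between 0 Gy and the other doses and are high again at 11.2 and 32.4 Gy, while Klk1b5 ILMN_2731191 and Klk1b27 ILMN_1252131 start high at 0 Gy.

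Klk1b5 and Klk1b27 were read differently by their probes. Klk1b27 ILMN_3009447 gave 233, 206 and 195 at 0 Gy, 5751, 5724 and 5652 at 0.05 Gy, 6857, 8995 and 8399 at 0.5 Gy, 366, 334 and 369 at 1.4 Gy, 7816, 7363 and 6871 at 11.2 Gy, and 4955, 4724 and 4712 at 32.4 Gy. Klk1b27 ILMN_1252131 gave 10558, 11193 and 10698 at 0 Gy, 31032, 31032 and 30058 at 0.05 Gy, 31032, 31032 and 28529 at 0.5 Gy, 11060, 10287 and 10349 at 1.4 Gy, 36415, 36415 and 34983 at 11.2 Gy, and 36415, 36415 and 33949 at 32.4 Gy. The second probe was thus bright on the control arrays, overlapped them at 1.4 Gy, and was the highest of all probes on 8 arrays, all at doses other than 0 and 1.4 Gy.

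On such arrays quantile normalization gives the top probe the same value each time, so that 31032 and 36415 are the ceilings of the 2 sets and the ratios of this probe are limited by them. Over the 5 doses its log2 ratio to 0 Gy was 1.51, 1.48, −0.03, 1.73 and 1.72, which was 3.25, 3.77, 0.79, 3.39 and 2.79 below that of ILMN_3009447.

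In Klk1b5 the same contrast appeared. ILMN_1224893 gave 135, 133 and 158 at 0 Gy, 3035, 3374 and 4183 at 0.05 Gy, 4151, 4726 and 5270 at 0.5 Gy, 346, 339 and 325 at 1.4 Gy, 3795, 4437 and 4411 at 11.2 Gy, and 2843, 2878 and 3094 at 32.4 Gy. ILMN_2731191 gave 9026, 9135 and 9289 at 0 Gy, 28529, 24191 and 20055 at 0.05 Gy, 25424, 24191 and 20581 at 0.5 Gy, 7780, 8497 and 8463 at 1.4 Gy, 28852, 28852 and 29467 at 11.2 Gy, and 28107, 27486 and 27486 at 32.4 Gy. All 3 arrays of 1.4 Gy were below all 3 of 0 Gy for this probe, the only one of the 14 with that order, and its log2 ratio was −0.15 (joint −0.18).

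A similar reading came from Klk1, the glandular kallikrein that releases kinins and whose probe covers part of the stretch of Klk1b5 ILMN_1224893. Klk1 gave 11684, 15277 and 13074 at 0 Gy, 20581, 23024 and 25774 at 0.05 Gy, 23024, 25424 and 26442 at 0.5 Gy, 10698, 11952 and 9904 at 1.4 Gy, 24930, 25959 and 28107 at 11.2 Gy, and 24540, 25422 and 25959 at 32.4 Gy. Its arrays at 1.4 Gy overlapped the controls and those of the other 4 doses did not.

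**Figure D2:**
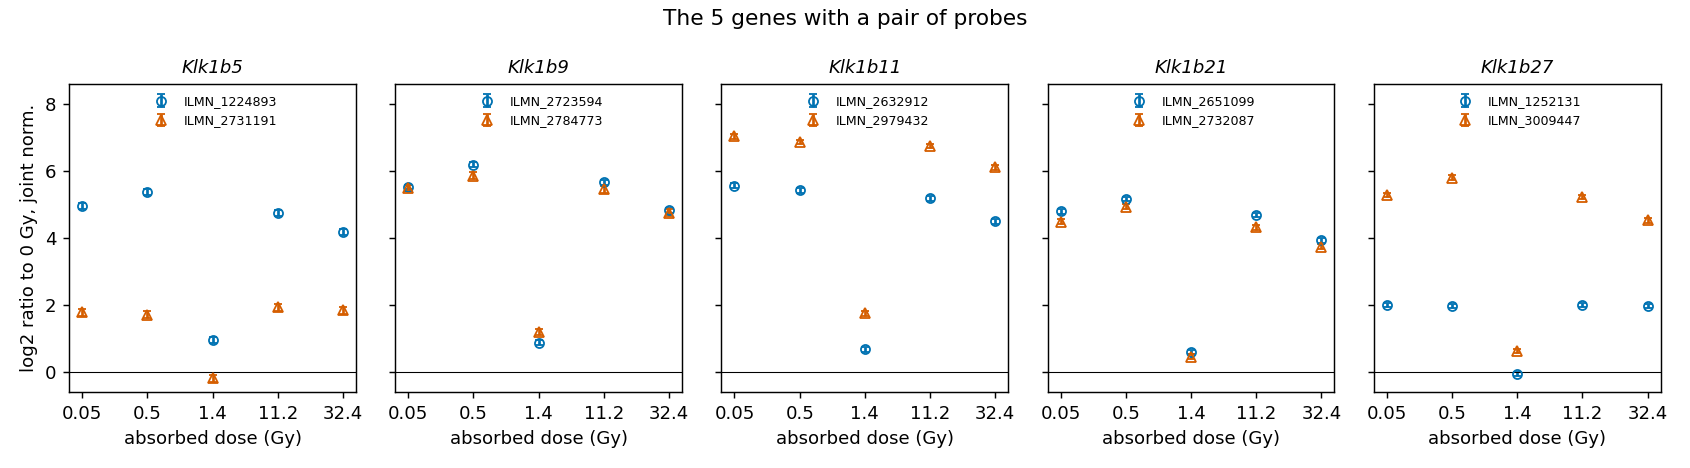
Log2 ratio to 0 Gy after joint normalization (vertical axis, bars SE) by absorbed dose in Gy for the pair of probes of each of 5 genes. The probes of Klk1b9 and of Klk1b21 nearly coincide, those of Klk1b11 differ by 1.07 to 1.63, and in Klk1b5 and Klk1b27 the probe that was bright at 0 Gy stays near 2 at 0.05, 0.5, 11.2 and 32.4 Gy while its partner lies above 4.

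Counted over the family, all 14 probes were called higher (adjusted p under 0.01 and at least 1.5-fold) than at 0 Gy at 0.05, 0.5, 11.2 and 32.4 Gy, where 1.04%, 1.49%, 2.23% and 1.61% of all probes were. At 1.4 Gy 12 of 14 were called higher, where 1.58% of all probes were, and 10 of 14 after joint normalization, where 1.23% of all probes were. Nothing is read from these counts, since the genes were chosen on these contrasts. From the lowest to the highest dose, the median log2 ratio of the 14 probes was 4.96 (range 1.39 to 7.87), 5.23 (1.35 to 7.72), 1.10 (−0.15 to 3.43), 5.28 (1.67 to 7.49) and 4.64 (1.60 to 7.0). Over all probes the medians were −0.19, −0.19, 0.00, −0.01 and −0.01. The joint medians of the family were 5.39, 5.61, 0.78, 5.20 and 4.50, and with neqc background correction they were 7.03, 7.35, 1.88, 6.95 and 6.20.

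At 1.4 Gy all 14 probes were called lower than the mean of the other 4 doses, as were 2.30% of all probes, again a contrast on which they were chosen. The median log2 difference was −3.83 (range −4.44 to −1.64). On the joint scale the median was −4.23 (range −4.93 to −1.99). In both scales the bright probes of Klk1b5 and Klk1b27 lay at the small end of the range, apart from the other 12.

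The choice of the genes fixed much of their profile over dose, which is therefore only described. On the joint scale the order of the group means was 0.5 Gy highest, then 0.05, 11.2, 32.4, 1.4 and 0 Gy in 7 probes. In 3 probes (both of Klk1b11, and Klk1b26) 0.05 Gy was above 0.5 Gy, and in 2 (Egfbp2 and Klk1b9 ILMN_2723594) 11.2 Gy was above 0.05 Gy. The bright probes differed, with the order 11.2, 32.4, 0.05, 0.5, 0 and 1.4 Gy in Klk1b5 ILMN_2731191 and 0.05, 11.2, 32.4, 0.5, 0 and 1.4 Gy in Klk1b27 ILMN_1252131. On the deposited scale, which crosses the sets, the median ratio was highest at 11.2 Gy instead of 0.5 Gy. Neighbours in this order often overlapped, in particular 0.05 and 11.2 Gy, whose arrays overlapped for Egfbp2, Klk1b5 ILMN_1224893, Klk1b16, Klk1b9 ILMN_2784773, Klk1b27 ILMN_3009447 and both probes of Klk1b21. The steps from 32.4 to 1.4 Gy and from 1.4 to 0 Gy did not overlap in any of the 12 probes other than the bright ones. Over the 6 group means the Pearson correlation of a probe with the mean centred profile of all 14 was between 0.963 and 1.00, a description in which each probe is part of the mean and the contrasts used for the choice weigh most.

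Doses that were normalized in the same set, and between which the genes were not chosen, allowed a test. At 32.4 Gy the family was lower than at 11.2 Gy. Of the 14 probes, 9 were called lower (Egfbp2, both probes of Klk1b9 and of Klk1b11, Klk1b16, Klk1b21 ILMN_2651099, Klk1b22 and Klk1b27 ILMN_3009447), where 0.292% of all probes were, and 0 higher, where 0.564% of all probes were. The median log2 ratio was −0.62, against 0.00 over all probes.

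The largest difference was in Klk1b9 ILMN_2723594, with 4083, 4218 and 4134 at 32.4 Gy against 7302, 7096 and 6644 at 11.2 Gy, a log2 ratio of −0.76 ± 0.08 (SE; adjusted p = 2.47e-07, limma). Klk1b22 followed with −0.71 ± 0.08 (SE; adjusted p = 8.46e-07, limma), and Klk1b16, with −0.63 ± 0.10 (SE; adjusted p = 0.000131, limma), had its arrays at 1546 to 1795 at 32.4 Gy and 2397 to 2843 at 11.2 Gy. Klk1b26, Klk1b5 ILMN_1224893 and Klk1b21 ILMN_2732087 had ratios of −0.50, −0.52 and −0.52 that passed the adjusted p (7.82e-05, 0.0012 and 4e-05, limma) but not the fold threshold. The share of all probes whose arrays did not overlap is not given, so nothing is read from the count that follows. In 13 of the 14 probes the arrays of the doses did not overlap. The exception was the bright Klk1b27 probe, at −0.01 ± 0.06 (SE) and on its ceiling, and the bright Klk1b5 probe had −0.07 ± 0.09 (SE), with adjusted p of 0.955 and 0.80 (limma).

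Many of these ratios lie near the fold threshold. After joint normalization 9 probes were again called lower, where 0.245% of all probes were, with Klk1b26 (−0.63) in place of Egfbp2 (−0.56). With each array scaled to its 75th percentile 4 were called, with a median of −0.54. All 12 probes other than the bright ones kept an adjusted p under 0.01 in the deposited and the joint values (limma), with joint ratios between −0.84 and −0.54. That count rests on the adjusted p without the fold threshold, and the share of all probes passing it is not given. It also leaves out the bright probes, which did not pass as deposited.

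Other tissue markers moved between the same pools, where 0.564% of all probes were called higher and 0.292% lower at 32.4 against 11.2 Gy. Of 9 skeletal muscle genes, 7 rose and 0 fell at 32.4 against 11.2 Gy, among them Mb (myoglobin) with a log2 ratio of 2.17, and the summed joint signal of the 9 was 23392 to 23951 at 32.4 Gy against 9265 to 9638 at 11.2 Gy. Of 12 parotid and demilune secretory genes, 5 fell and 0 rose, among them Cst10 at −4.62, with sums of 7971 to 8572 against 26728 to 30063. Of 8 other submandibular secretory genes, 0 rose and 1 fell (Smr3a, −2.64), with sums of 177832 to 181382 against 174313 to 178271. The part of these shifts in the kallikrein difference was not tested.

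Between the lowest doses the difference was smaller and not shared by all members. At 0.5 Gy 2 of 14 probes were called higher than at 0.05 Gy, where 0.475% of all probes were, and 0 lower, where 0.549% of all probes were, and the median log2 ratio was 0.34. The called ones were Klk1b16, at 0.68 ± 0.10 (SE; adjusted p = 3.93e-05, limma), and Klk1b9 ILMN_2723594, at 0.61 ± 0.08 (SE; adjusted p = 5.13e-06, limma), and in both all 3 arrays of 0.5 Gy were above all 3 of 0.05 Gy. The second Klk1b9 probe had 0.34 ± 0.10 (SE; adjusted p = 0.0389, limma) and was not called. Without replicate 1 of 0.05 Gy 0 of the 14 were called, where 274 of all probes were in either direction. Without replicate 2 of 0.5 Gy 1 was, where 259 of all probes were.

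Ratios at 0.5 against 0.05 Gy were below 0 in 5 probes, namely Klk1b26 (−0.15 ± 0.08), Klk1b11 ILMN_2979432 (−0.16 ± 0.07), Klk1b11 ILMN_2632912 (−0.13 ± 0.08) and the bright probes of Klk1b5 (−0.04 ± 0.09) and Klk1b27 (−0.03 ± 0.06), with SE after each and none past the threshold. Over the 14 probes the arrays of 0.5 Gy were all above those of 0.05 Gy in 7, all below in 1 and overlapping in 6. The share of all probes with such a separation is not given, so nothing is read from these counts. In the same pools 5 of 9 skeletal muscle genes fell at 0.5 against 0.05 Gy and 0 rose, with sums of 11533 to 12790 against 15388 to 17111. Of all probes, 0.549% fell and 0.475% rose in this contrast. Of the parotid and demilune genes 1 rose and 0 fell, with sums of 10527 to 12826 against 6747 to 7004. Their part in the kallikrein ratios was not tested.

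**Figure D3:**
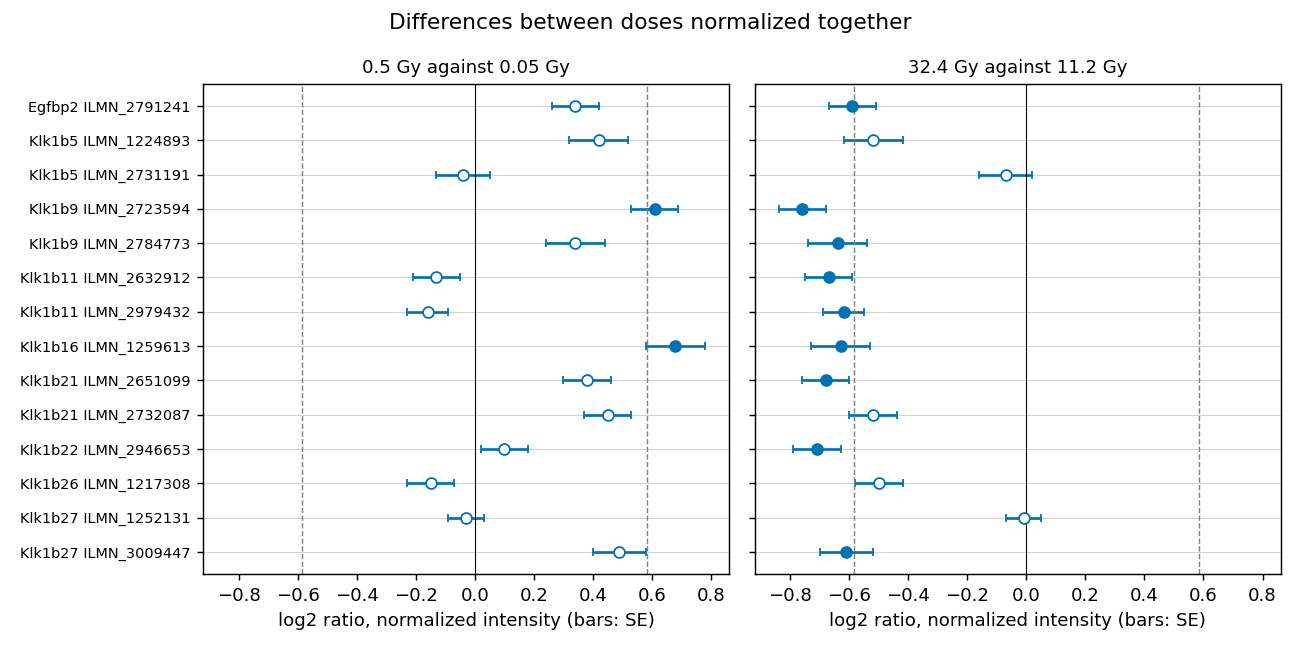
Log2 ratio of the deposited normalized intensity (horizontal axis, bars SE, 3 arrays each) for each kallikrein probe (rows) at 0.5 against 0.05 Gy and at 32.4 against 11.2 Gy. Filled points passed an adjusted p of 0.01 and the 1.5-fold threshold shown by dashed lines (2 probes on the left, 9 on the right), and on the right only the bright probes of Klk1b5 and Klk1b27 lie near 0.

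The other kallikreins on the array did not all behave alike. Of 15 such genes with a probe, 5 were detected on every array of some group. Of these Klk1, Klk1b1, Klk1b8 and Klk1b24, which belong to the Klk1 branch as the members do, rose at 0.05, 0.5, 11.2 and 32.4 Gy, and 0 of the 15 rose at 1.4 Gy. The fifth, Klk8, was called in none of these contrasts, and the probes of Klk4 to Klk7, Klk9 to Klk11 and Klk13 to Klk15 were not detected on all 3 arrays of any group.

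Klk1b8 came closest to the members, with log2 ratios to 0 Gy of 5.16, 5.13, 0.54, 4.71 and 4.25 and a correlation with their mean profile of 0.992 over 6 group means. Klk1b24, described like Klk1b21 in Leydig cells of mice, was not detected at 0 Gy and had log2 ratios of 4.12 (at least 14.6-fold) at 0.05 Gy and 5.04 (at least 27.6-fold) at 0.5 Gy, and its difference between these doses of 0.91 ± 0.10 (SE; adjusted p = 1.65e-07, limma) was in the direction of Klk1b16 and Klk1b9. At 1.4 Gy Klk1b24 was not called, but it was detected on all 3 arrays, which lay at 164 to 176 against 105 to 131 at 0 Gy. Its mean log2 intensity was 7.42 there and 6.84 at 0 Gy. At 32.4 against 11.2 Gy Klk1b24 fell by 0.71 ± 0.10 on the log2 scale (SE; adjusted p = 1.17e-05, limma).

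Klk1b1 followed another course. Its intensities were 122, 109 and 102 at 0 Gy, 1958, 2031 and 2108 at 0.05 Gy, 447, 533 and 475 at 0.5 Gy, 104, 108 and 135 at 1.4 Gy, 595, 569 and 663 at 11.2 Gy, and 368, 375 and 336 at 32.4 Gy. It was highest at 0.05 Gy and fell by 2.07 ± 0.09 on the log2 scale at 0.5 against 0.05 Gy (SE; adjusted p = 1.02e-14, limma), a contrast in which the member probes lay between −0.16 and 0.68. At 32.4 against 11.2 Gy it fell by 0.76 ± 0.09 (SE; adjusted p = 2.3e-06, limma). It was not detected at 0 or at 1.4 Gy, and was at least 14.9-fold higher in the 0.05 Gy group than in the controls. Its correlation with the mean profile of the members was 0.804 over the 6 group means.

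**Figure D4:**
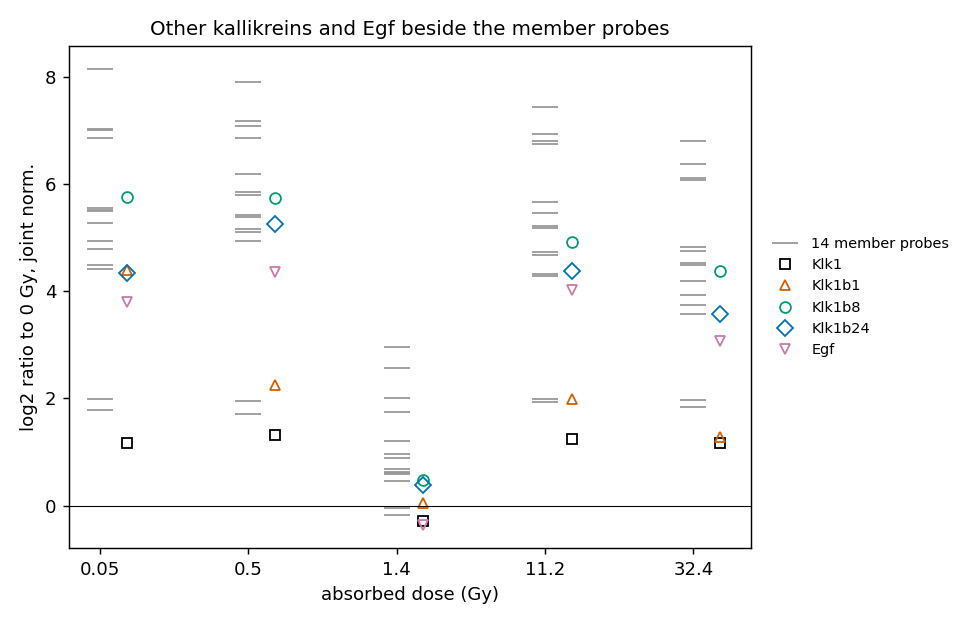
Log2 ratio to 0 Gy after joint normalization (vertical axis) by absorbed dose in Gy. Grey bars are the 14 member probes and symbols the other kallikreins of the cluster and Egf; Klk1b8 and Klk1b24 fall among the members, Klk1b1 is near 4 at 0.05 Gy only, and Egf is high at every dose but 1.4 Gy.

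Of the substrates and partners of kallikreins, 10 of 17 listed genes had a probe. The gene of epidermal growth factor, Egf, had a course like that of the members. It gave 446, 505 and 458 at 0 Gy, 4120, 3907 and 4421 at 0.05 Gy, 5812, 5674 and 6153 at 0.5 Gy, 344, 347 and 360 at 1.4 Gy, 6336, 6539 and 6449 at 11.2 Gy, and 3276, 3557 and 3631 at 32.4 Gy. Unlike 12 of the member probes it lay below all control arrays at 1.4 Gy, and at 32.4 against 11.2 Gy it fell by 0.89 ± 0.07 on the log2 scale (SE; adjusted p = 9.12e-10, limma).

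Kng1, which encodes kininogen, the precursor from which kallikreins release kinins, went the other way at the lowest doses. The log2 ratio of its brightest probe, ILMN_2788223, to 0 Gy was −2.37 at 0.05 Gy (adjusted p = 5.58e-19, limma; joint −1.90), −3.30 at 0.5 Gy (adjusted p = 2.28e-22, limma; joint −2.84) and −0.71 at 11.2 Gy (adjusted p = 7.18e-08, limma), and it was not called at 1.4 and 32.4 Gy. The other Kng1 probes gave −1.14 (called) and −0.25 (not called) at 0.05 Gy, and −1.33 (called) and −0.23 (not called) at 0.5 Gy. Kng2 had −1.55 at 0.05 Gy and −2.18 at 0.5 Gy and was called in neither direction at the higher doses. Ngfr, a receptor of nerve growth factor that was not detected at 0 Gy, rose at 0.05, 0.5, 11.2 and 32.4 Gy with ratios of 0.78, 0.79, 1.29 and 0.72 (at least 1.59-fold, 1.60-fold, 2.27-fold and 1.53-fold), of which the last was 0.49 and no longer called on the joint scale. Agt, the substrate of renin, rose by 1.20 at 0.5 Gy and was lower at 0.05 Gy (−0.74) and 1.4 Gy (−0.64), neither of these called on the joint scale.

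Of the Egfr probes, which read the receptor of epidermal growth factor, 1 (ILMN_2693922) was called at 1.4 Gy, with a ratio of 0.77 (adjusted p = 2.1e-09, limma), and on the joint scale at 0.05 and 0.5 Gy too (0.96 and 0.86). The other 3 Egfr probes were called in none of the contrasts. Together, 2, 3, 1, 2 and 2 of the 10 genes rose and 3, 2, 1, 1 and 0 fell from the lowest to the highest dose, and on the joint scale 3, 4, 1, 2 and 1 rose and 2, 2, 0, 1 and 0 fell. Among all 25697 probes, 268, 383, 406, 573 and 414 were called higher and 4032, 3930, 380, 276 and 230 lower in the same order. On the joint scale 674, 948, 317, 474 and 336 were higher and 561, 1001, 308, 246 and 202 lower. Nothing about the partners as a set is read from these counts.

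Some genes of salivary ducts were lower at 1.4 Gy than at other doses. Of 7 measured, 2, 4, 0, 3 and 2 rose from 0.05 to 32.4 Gy, and 2 fell at 1.4 Gy (1 on the joint scale). Of all 25697 probes, 268, 383, 406, 573 and 414 were called higher, and 380 lower at 1.4 Gy (308 on the joint scale). Only 4 of the 7 were detected on all 3 arrays of a group, and the median ratios of the 7 were −0.04, 0.81, −0.03, 0.16 and 0.15. Elf5, a transcription factor of secretory epithelia, had ratios to 0 Gy of 0.99 for 0.05 Gy, −1.63 for 1.4 Gy and 1.13 for 11.2 Gy, and Ascl3, a marker of duct progenitors, 1.31, 0.12 and 1.54.

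Secretory proteins of the submandibular gland outside the kallikrein family, read by the brightest probe of each gene, were high at 1.4 Gy as well. Of 8 measured genes, 5 rose and 1 fell at every dose. Of all 25697 probes, 268, 383, 406, 573 and 414 were called higher and 4032, 3930, 380, 276 and 230 lower from 0.05 to 32.4 Gy. The median log2 ratios of the 8 genes to 0 Gy were 3.04, 3.14, 3.29, 3.38 and 3.31 from 0.05 to 32.4 Gy. Those of the kallikrein probes were 4.96, 5.23, 1.10, 5.28 and 4.64. Smgc (ILMN_2620853), a submandibular mucin-like protein, had 8.13 at 0.5 Gy, 6.57 in the 1.4 Gy group and 8.41 at 11.2 Gy, and Scgb1b27 (ILMN_2703052), an androgen-binding protein subunit, 3.49, 3.83 and 3.72. Other probes of these genes dipped at 1.4 Gy as the kallikreins did. Scgb1b27 ILMN_1249191 had mean joint log2 intensities of 12.54, 8.74 and 12.27 at 0.5, 1.4 and 11.2 Gy, against 6.66 at 0 Gy. Smgc ILMN_2775962 had 9.83, 7.19 and 9.39, against 6.53 at 0 Gy. The gene that fell was Smr3a, at −8.03, −7.82 and −5.05 for the same doses. These comparisons share the control arrays with those of the members, and the difference between the lists was not tested. The summed joint signal of the 8 was 57571 to 63404 at 0 Gy, 169630 to 179344 at 0.05 Gy, 168836 to 187370 at 0.5 Gy, 131844 to 136378 at 1.4 Gy, 174313 to 178271 at 11.2 Gy and 177832 to 181382 at 32.4 Gy.

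Secretory proteins of the parotid gland and of demilune cells ran opposite, with 0 higher and 9, 9, 10, 8 and 9 of 12 lower than at 0 Gy from the lowest to the highest dose, and on the joint scale 8, 8, 9, 7 and 8 lower and 1 higher, at 0.5 Gy. Of all 25697 probes, 4032, 3930, 380, 276 and 230 were called lower as deposited, where 0.05 and 0.5 Gy cross the normalization sets. On the joint scale 561, 1001, 308, 246 and 202 of them were lower, and 948 higher at 0.5 Gy. Cst10, a cystatin, had ratios of −8.10 for 0.05 Gy, −8.04 for 1.4 Gy and −3.36 for 11.2 Gy, and Dnase1 −8.06, −8.22 and −4.01. Their summed joint signal was 136595 to 146992 at 0 Gy, 6747 to 7004 at 0.05 Gy, 10527 to 12826 at 0.5 Gy, 2428 to 2455 at 1.4 Gy, 26728 to 30063 at 11.2 Gy and 7971 to 8572 at 32.4 Gy. Of the 9 skeletal muscle genes, 9, 8, 6, 9 and 9 rose relative to 0 Gy, where 268, 383, 406, 573 and 414 of all probes did. Of 3 measured genes of thyroid C cells, 1 (Ret) rose at every dose but 1.4 Gy, and 0 of 2 parathyroid genes were detected on all arrays of a group. The parts of these shifts in the kallikrein ratios were not tested.

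Beyond these lists, the 10 probes of no member most like the mean kallikrein profile were taken from 258 probes with a range of at least 2 log2 units over the group means. Of the 10, 6 have a gene symbol. They were Smgc ILMN_2775962, Muc13, a membrane mucin, and Herc2, a ubiquitin ligase (each 0.994), Klk1b8 (0.992), Scgb1b27 ILMN_1249191 (0.990) and Klk1b24 (0.989), with the Pearson correlation over 6 group means after each. The Smgc and Scgb1b27 probes named here are others than those given above for these genes. These correlations rest on 6 points that share their arrays and pools.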

How the data were processed

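Pools of thyroid RNA from 6 groups were each run on 3 Illumina arrays (18 in all). The authors read fluorescence intensity and applied quantile normalization, and the deposited values are linear intensity before and after it, each with a detection p-value made by the authors' scanner software. Whether background was subtracted is not given in the sources used here. The 2 sets of arrays in the normalized values were found from their shared distributions. The 815 control probes were left out, 23978 probes have 1 gene symbol and 1719 none, and between 9737 and 10995 probes per array were detected (detection p under 0.01). The number of arrays limits the precision.

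Log2 of the deposited normalized values was fitted in limma 3.58.1 (R 4.3.3) with a mean per group over 18 arrays, moderated statistics and Benjamini-Hochberg adjustment over 25697 probes. Calls needed a fold of at least 1.5 with an adjusted p below 0.01, the thresholds of the study's methods. "Rose" and "fell" are used of calls. Other genes are given by their probe with the highest mean. Joint quantile normalization, background correction with neqc (background taken from the detection p-values), scaling to the 75th percentile, detected probes only, a replicate block and leaving out each array were the alternatives. The script was tested on simulated data.

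The members and gene lists were chosen with earlier results of these data known. All member probes are named. Of other kallikreins and of partners, genes called in at least 1 contrast may be named, and of other lists up to 4 by size. Probe sequences come from the study's probe annotation, promoters from RefSeq (GRCm38.p6), aligned with Biopython 1.88. Probes were compared without gaps over at least 25 bases. Figures were drawn with matplotlib 3.10.9. Replicate numbers did not pair arrays.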

Additional observations from a re-analysis of the deposited data

How the results depend on the processing

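No median of the kallikrein probes and no called ratio of a single one changed sign under the alternatives run, but the order of the doses did: the median ratio to 0 Gy was highest at 11.2 Gy as deposited and at 0.5 Gy under joint normalization, neqc and scaling. The median log2 ratio of the kallikrein probes to 0 Gy over the 5 doses in rising order was 4.96, 5.23, 1.10, 5.28 and 4.64 as reported. With joint quantile normalization it was 5.39, 5.61, 0.78, 5.20 and 4.50, with neqc background correction 7.03, 7.35, 1.88, 6.95 and 6.20, and with 75th-percentile scaling 5.32, 5.44, 0.77, 5.03 and 4.48. For 1.4 Gy against the mean of the other doses it was −3.83, and −4.23, −4.92 and −4.02 under these. For 32.4 against 11.2 Gy it was −0.62, and −0.67 with neqc and −0.54 with scaling.

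At 0.05 Gy, 4300 of all probes were called, and 1235 jointly, 2546 with neqc and 1287 with scaling. At 0.5 Gy it was 4313, and 1949 jointly and 2017 with scaling. For 1.4 Gy against the mean of the other doses it was 2694, and 1507 jointly. More were called with neqc at 1.4 Gy (1345 against 786), 11.2 Gy (1588 against 849) and 32.4 Gy (1150 against 644), at 0.5 against 0.05 Gy (627 against 263) and at 32.4 against 11.2 Gy (423 against 220). At 0.05 Gy 268 calls were higher and 4032 lower as deposited, against 674 and 561 jointly, and at 0.5 Gy 383 and 3930 against 948 and 1001. For 1.4 Gy against the mean it was 2103 and 591, against 696 and 811 jointly. With scaling the split was 481 and 278 at 1.4 Gy (406 and 380 as deposited), 361 and 548 at 11.2 Gy (573 and 276), and 164 and 34 at 32.4 against 11.2 Gy (145 and 75). Scaling put the median of all probes at −0.15 at 0.5 Gy and −0.11 at 0.5 against 0.05 Gy. In the latter contrast 1 kallikrein probe was called, where 270 of all probes were. At 32.4 against 11.2 Gy 4 were, where 198 of all probes were. The majority of calls thus turned from higher to lower at 11.2 Gy with scaling and for 1.4 Gy against the mean jointly, and from lower to higher at 0.05 Gy jointly. The cause of these changes was not tested.

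Leaving out 1 array at a time gave medians of 4.89 to 5.03, 5.18 to 5.27, 1.04 to 1.11, 5.23 to 5.32 and 4.59 to 4.68 for the 5 doses, 0.27 to 0.38 at 0.5 against 0.05 Gy and −0.62 to −0.58 at 32.4 against 11.2 Gy. It left 0 to 3 kallikrein probes called at 0.5 against 0.05 Gy, where 258 to 303 of all probes were. At 32.4 against 11.2 Gy it left 6 to 8, where 216 to 243 of all probes were called. In every fit, also with 2 arrays left in a group, the spread of a probe is taken from all groups together.

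With the replicate block, 2 kallikrein probes were called at 0.5 against 0.05 Gy and 9 at 32.4 against 11.2 Gy, as without it. Over all probes 265 and 222 were called in these contrasts, and 4300, 4316, 790, 852 and 646 for the 5 doses. Same-numbered arrays correlated at −0.03 to 0.29 across groups, so the numbers do not pair arrays. A block by BeadChip was not run, since the columns used name no chips. Probes near background at 0 Gy have ratios that depend on the background handling, and those of the bright Klk1b27 probe on the ceiling of the scale.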
